A study of Mus musculus with 20 samples.

Results

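H3K27ac, the acetylation of lysine 27 of histone H3 that marks active promoters and enhancers, was mapped by ChIP-Seq in lineage-negative (Lin-) bone marrow cells of WT and Ep300Δ/Δ mice, and the peak lists of both genotypes were compared place by place. Both lists were merged on the 19 autosomes, and peaks sharing at least 1 bp became 1 region. A region with a WT peak and no Ep300Δ/Δ peak was lost, a region with an Ep300Δ/Δ peak and no WT peak was gained, and the others were retained. This gave 31211 regions. Merging the lists of all 4 genotypes of the series gave 34536 regions, a separate merge in which further peaks can join regions, so the first count is not a part of the second. Of the 31211 regions, 17232 were retained, 11437 were lost and 2542 were gained. The study asked how loss of the histone acetyltransferase p300 changes blood stem and progenitor cells with and without Tet2, and its 20 histone libraries cover H3K27ac, H3K4me1, H3K4me3, H3K27me3 and total H3 in WT, Ep300Δ/Δ, Tet2-/- and Ep300Δ/Δ Tet2-/- cells. There was 1 library per genotype and mark, so no difference below has a replicate check and no p-value is given. The 95% intervals are exact Clopper-Pearson intervals and cover counting error only.

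The WT mice carried Ep300 fl/fl alleles and no Cre, and the Ep300Δ/Δ mice carried the same alleles with Mx1-Cre. Both groups, on a C57BL/6 background, received 3 doses of poly(I:C) at an age of 6 to 8 weeks, so the controls had the interferon stimulus as well. The study worked 2 weeks after poly(I:C) or at other stated times, and the time of these libraries is not given in the sources used here. Mx1-Cre is induced by interferon and acts in other tissues besides blood. The number of mice behind each library are not given in the sources used here. Each library came from Lin- cells with a labelled purity above 80%, and from 5 µg of chromatin with 10 ng of Drosophila chromatin added as a spike-in.

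As background, p300 and its paralog CBP, encoded by Ep300 and Crebbp, transfer acetyl groups to histones, with lysine 27 of H3 a main target, and are recruited to enhancers and promoters by transcription factors such as Myb, Runx1, GATA and C/EBP proteins. H3K4me1 marks enhancers whether or not they are active, and H3K4me3 marks promoters, mostly those rich in CpG. H3K27ac together with H3K4me1 away from promoters is the usual sign of an active enhancer.

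The windows around the summits of the strongest regions of each class show the kinds of sequence involved. Each is 121 bp of the plus strand of GRCm38/mm10, centred on the summit of the strongest peak, and capitals mark the letters of any of the 17 motifs searched. They are shown as examples from the regions with the highest fold enrichment of each class, and not every such region is printed. The first set holds lost regions: at the promoter of Apobec3, a cytidine deaminase gene that restricts retroviruses (chr15:79896124-79896244), within 3000 bp of a start of Sltm, a gene for an RNA-binding protein (chr9:70584760-70584880), in an intron of Gsr, the glutathione reductase gene (chr8:33675583-33675703), and in intergenic sequence whose nearest protein-coding start is that of Klrb1f, a lectin receptor gene (chr6:129036690-129036810).
Apobec3, lost promoter: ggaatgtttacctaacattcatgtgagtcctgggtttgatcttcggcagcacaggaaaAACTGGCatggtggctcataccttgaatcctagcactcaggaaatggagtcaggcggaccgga
Sltm, lost promoter: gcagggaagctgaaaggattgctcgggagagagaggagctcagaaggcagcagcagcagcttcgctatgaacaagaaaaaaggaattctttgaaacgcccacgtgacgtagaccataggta
Gsr, lost intron: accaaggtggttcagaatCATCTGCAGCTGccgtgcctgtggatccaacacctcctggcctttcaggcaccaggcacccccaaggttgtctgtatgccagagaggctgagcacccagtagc
Klrb1f, lost intergenic: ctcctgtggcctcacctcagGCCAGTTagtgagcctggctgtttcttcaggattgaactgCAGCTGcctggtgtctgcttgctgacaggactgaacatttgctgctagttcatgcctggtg
The second set holds gained regions at the promoters of CT030661.1 (chr17:22314660-22314780) and of Akap11, a gene for a protein kinase A anchoring protein (chr14:78536457-78536577).
CT030661.1, gained promoter: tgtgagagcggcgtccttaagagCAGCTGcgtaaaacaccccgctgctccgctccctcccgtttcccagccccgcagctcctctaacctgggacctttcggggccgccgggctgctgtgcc
Akap11, gained promoter: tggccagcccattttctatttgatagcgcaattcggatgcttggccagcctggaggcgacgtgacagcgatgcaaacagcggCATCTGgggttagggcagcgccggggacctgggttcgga
The third set holds regions outside promoters that were retained with the highest WT enrichment, in an intron whose nearest protein-coding start is that of Irf2, an interferon regulatory factor gene (chr8:46687052-46687172), and in intergenic sequence nearest to Ccnl1, the cyclin L1 gene (chr3:65974614-65974734).
Irf2, retained intron: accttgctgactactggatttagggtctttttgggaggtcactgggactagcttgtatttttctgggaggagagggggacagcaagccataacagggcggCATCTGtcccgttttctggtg
Ccnl1, retained intergenic: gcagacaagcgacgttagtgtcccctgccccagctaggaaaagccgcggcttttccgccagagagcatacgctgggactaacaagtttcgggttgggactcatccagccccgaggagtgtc
The CpG count of these windows was 3 at Apobec3, 5 at Sltm, 1 at Gsr, 0 at Klrb1f, 10 at CT030661.1, 9 at Akap11, 2 at Irf2 and 8 at Ccnl1. Among windows of the same sets that are not printed, it was 1 at the gained region nearest to Depdc1b, 3 at the lost promoter region nearest to Tsga10ip and 7 at the retained region nearest to Kpna2. The capitals in Apobec3 and the first capitals in Klrb1f are a MYB motif (AACTGNC, both strands), which 9.78% of all 31211 regions held within 100 bp of the summit. The other capitals are E-box letters (CAGNTG, both strands), held by 43.4% of all regions, and those of Gsr are 2 adjacent matches. In the RefSeq sequence, 64.5% of the Apobec3 window and 58.7% of the Klrb1f window are marked as repeats.

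The promoter acetylation of lineage markers was checked against the Lin- label. Of 7 progenitor markers, 6 had an H3K27ac peak within 3000 bp of a start in both lists (Kit, Cd34, Flt3, Gata2, Meis1 and Myb). None of the 6 T and NK, 3 mature B, 2 plasma, 4 stromal or 3 endothelial markers had a promoter peak in either list. Of 4 neutrophil markers, Camp and Ngp had promoter peaks in the WT list only, while Ly6g and Ltf had none in either. The WT list held 29012 autosomal peaks covering 18.3 Mb, and the Ep300Δ/Δ list 22190 peaks covering 11.2 Mb. The read depth behind the lists is unknown, as is whether the spike-in entered the peak calling.

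Of 28669 WT regions, 11437 were lost, which is 39.9% (95% interval 39.3 to 40.5), and of 19774 Ep300Δ/Δ regions, 2542 were gained, which is 12.9% (12.4 to 13.3). Lost regions thus outnumbered gained regions by 4.50 to 1. When both lists were cut to 22190 peaks by q, the counts were 5882 lost and 3744 gained, a ratio of 1.57. Stricter peaks gave higher ratios, up to 27.5 at a −log10 q of at least 10 in both lists. Lost regions were narrower than retained ones, with median widths of 348 and 675 bp, and gained regions were the narrowest at 237 bp. Fold enrichment, the ratio of H3K27ac to H3 reads at the summit, had a median of 4.82 at lost and 9.71 at retained regions in the WT list. Gained regions had a median of 3.93 in the Ep300Δ/Δ list, and 609 of the 2542 had a q above 0.05. In bulk chromatin, fewer cells with an acetylated region and less acetylation per cell cannot be told apart.

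The places of the classes differed. Promoters, within 3000 bp of any transcript start, held 13277 of the retained regions (77.0%), 4802 of the lost (42.0%) and 1439 of the gained (56.6%). Introns held 3808 lost and 2065 retained regions, and intergenic sequence 20.6% of the lost against 9.08% of the retained. Outside promoters, 62.7% of the WT regions were lost (61.7 to 63.6), and at promoters 26.6% (25.9 to 27.2). The shares were close among introns (64.8%), intergenic sequence (60.1%) and exons (59.3%). The median distance to the nearest start was 51 bp for retained, 4522 bp for lost and 1766 bp for gained regions, and 31.8% of the lost regions lay over 10 kb away. Losses were spread over all chromosomes, from 34.7% of the WT regions of chromosome 11 to 44.4% of those of chromosome 15.

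**Figure D1:**
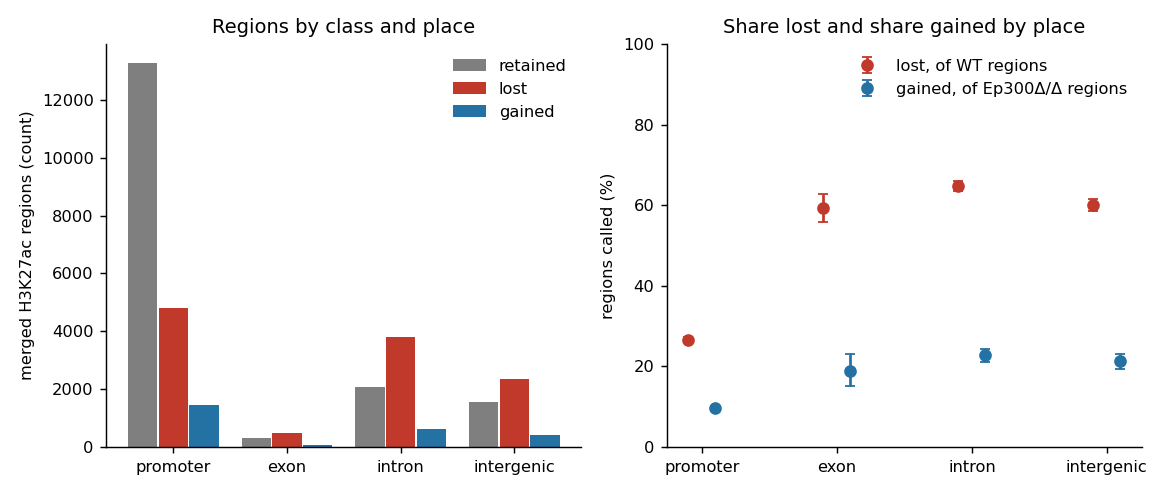
Left, numbers of retained (grey), lost (red) and gained (blue) H3K27ac regions by place, and right, the percentage of WT regions lost and of Ep300Δ/Δ regions gained at each place, with 95% exact binomial intervals. Promoters held 13277 retained against 4802 lost regions, while in introns and intergenic sequence lost regions were more numerous than retained ones.

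The loss was steeply graded by the strength of the region in WT cells. With the WT regions sorted by WT fold into 4 parts of the same size, the share lost was 1.55% in the strongest part, then 24.3%, 57.3% and 76.4%. Within every part the share was higher outside promoters: 7.59% against 0.671% in the strongest part, 40.3% against 16.0% in the second, 69.1% against 46.9% in the third and 84.2% against 67.3% in the weakest. The strength divisions lay at 11.4-fold, 6.70-fold and 4.73-fold. These ranks come from the same WT list that defined the classes, so they describe the lost regions and do not test the loss.

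Lost promoter regions were also poorer in CpG. The 201 bp around the summit held a median of 4 CpG dinucleotides in lost and 11 in retained promoter regions, with 6 in gained ones. The G+C content had medians of 52.2% in lost and 59.7% in retained promoter regions. At promoters the share lost went from 58.1% of regions with 0 to 2 CpG to 40.7% with 3 to 7, 726 of 5574 regions with 8 to 14 and 8.94% with 15 or more. The order of the first 3 bins held in each strength part. In the third part 66.2%, 52.9%, 31.3% and 29.1% were lost. Outside promoters, where CpG was scarce throughout, the share went from 68.7% with 0 to 2 CpG to 42.4% with 8 to 14. Summit windows more than 50% marked as repeats made up 7.37% of the lost and 2.03% of the retained promoter regions, and 10.3% and 6.85% outside promoters.

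**Figure D2:**
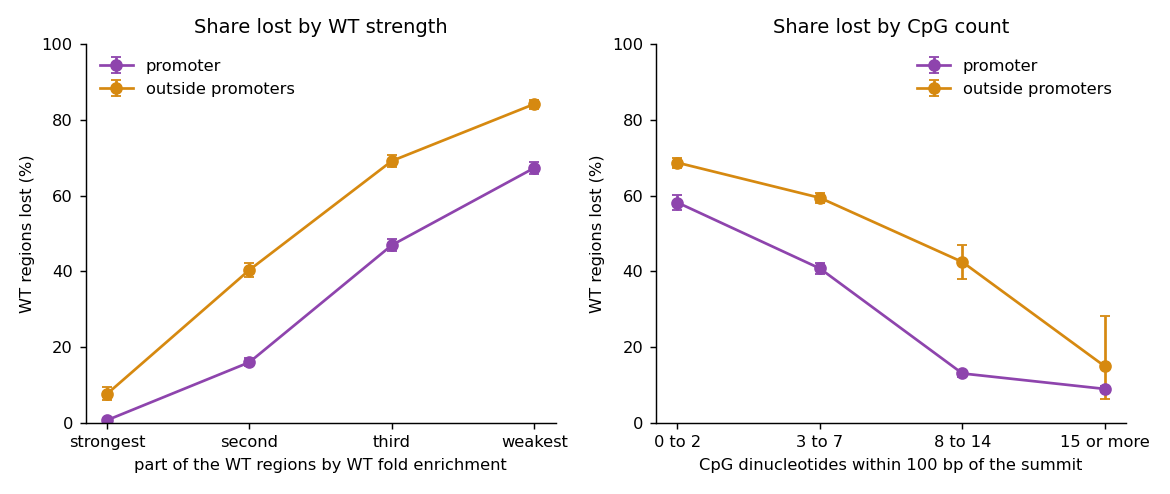
The percentage of WT regions lost in the 4 parts by WT fold enrichment (left) and by the number of CpG dinucleotides within 100 bp of the summit (right), at promoters (purple) and outside them (orange), with 95% exact binomial intervals. From the strongest to the weakest part the share goes from 0.671% to 67.3% at promoters and from 7.59% to 84.2% outside them, and at promoters it goes from 58.1% at 0 to 2 CpG to 8.94% at 15 or more.

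H3K4me1 and H3K4me3, titled H3Kme1 and H3Kme3 in the labels and read so from the file names and the study's methods, were not used by the classes and differed between them. In WT cells 82.6% of the lost regions (81.9 to 83.3) overlapped an H3K4me1 peak, against 63.1% of the retained regions. This order was that of promoters, with 77.5% of lost and 54.7% of retained regions, and it was reversed outside promoters, with 86.4% (85.5 to 87.2) of lost and 91.5% (90.6 to 92.3) of retained regions. H3K4me3 peaks lay at 33.3% of the lost and 82.7% of the retained regions over all places. By WT mark, 13.3% of the 7124 regions with H3K4me3 alone were lost, 26.1% of the 10929 with both marks, 70.2% of the 9397 with H3K4me1 alone and 84.9% of the 1219 with neither. For H3K4me1 alone the share was 69.8% (68.0 to 71.6) at promoters and 70.3% (69.2 to 71.4) outside them, with overlapping intervals. In the second strength part the order was kept, with 12.3% lost for H3K4me3 alone, 15.3% for both, 47.6% for H3K4me1 alone and 64.6% for neither. Of the lost regions, 4833 lay outside promoters and carried WT H3K4me1 without H3K4me3.

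Most lost regions kept their H3K4me1 peak. Of the 9452 lost regions with WT H3K4me1, 8075 (85.4%, 84.7 to 86.1) had an H3K4me1 peak in the Ep300Δ/Δ list, against 91.0% of the retained regions with WT H3K4me1. H3K4me3 was kept at 78.0% of the lost regions that had it in WT cells and at 96.1% of the retained. Outside promoters the H3K4me3 peak of lost regions was kept at 57.2% (54.2 to 60.3), and that of retained regions there at 80.4% (78.5 to 82.2). The H3K4me1 list was shorter in Ep300Δ/Δ cells too, with 89936 autosomal peaks against 106260 in WT, and the H3K4me3 list held 24266 against 25516. Gained regions had an H3K4me1 peak in 65.8% of cases in the WT list and in 75.6% in the Ep300Δ/Δ list, and an H3K4me3 peak in 53.3% and 55.3%.

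**Figure D3:**
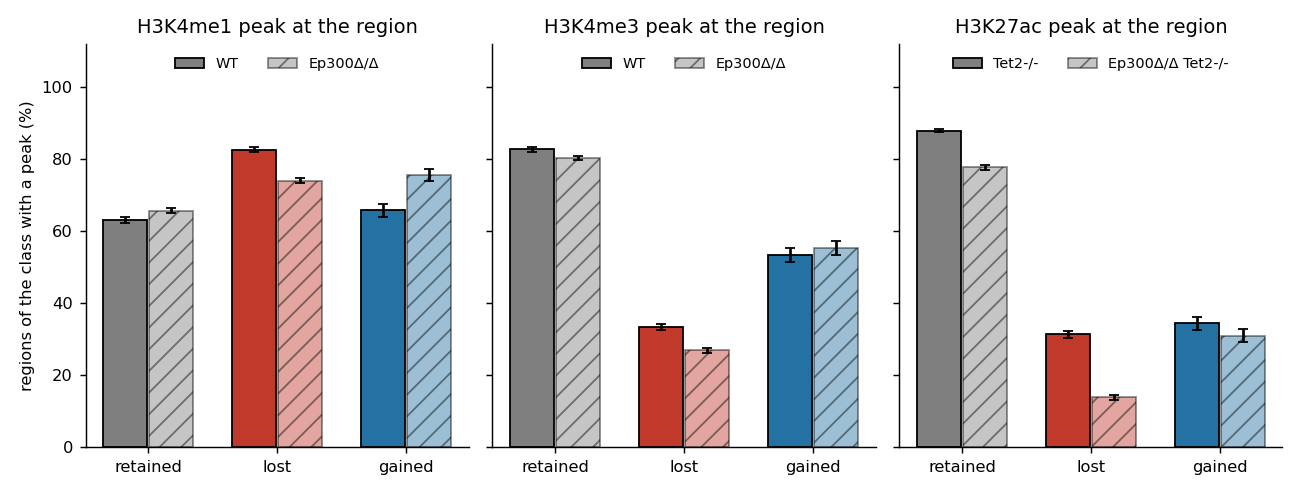
The percentage of retained (grey), lost (red) and gained (blue) regions that overlapped a peak of H3K4me1 or H3K4me3 in WT (solid) and Ep300Δ/Δ cells (hatched), and of H3K27ac in Tet2-/- (solid) and Ep300Δ/Δ Tet2-/- cells (hatched), with 95% exact binomial intervals. Over all places pooled, in WT cells lost regions have the highest H3K4me1 share, 82.6%, and the lowest H3K4me3 share, while in Ep300Δ/Δ cells the H3K4me1 share is 75.6% for gained and 74.0% for lost regions, and 31.3% of them had a peak in Tet2-/- cells.

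H3K27ac lists of Tet2-/- and Ep300Δ/Δ Tet2-/- cells, 1 library each that the classes did not use, give a further readout of the same regions. A Tet2-/- peak lay at 87.9% of the retained, 31.3% of the lost and 34.3% of the gained regions. Of the 3575 lost regions with a Tet2-/- peak, 71.0% (69.5 to 72.5) had no peak in Ep300Δ/Δ Tet2-/- cells, against 15.5% (14.9 to 16.1) of the 15155 retained regions. The gap was present in each strength part, at 54.5% against 4.12% in the strongest and 75.1% against 41.1% in the weakest. Of the gained regions without a Tet2-/- peak, 19.7% (17.8 to 21.7) had one in Ep300Δ/Δ Tet2-/- cells, against 6.86% of such lost regions and 28.3% (26.3 to 30.3) of such retained regions. The Tet2-/- list held 23970 and the Ep300Δ/Δ Tet2-/- list 17846 autosomal peaks.

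Regions that were retained had smaller peaks in the Ep300Δ/Δ list. Peaks covered fewer bases in 14392 of the 17232 retained regions (83.5%), and the ratio of Ep300Δ/Δ to WT bases had a median of 0.816. The median ratio was 0.842 at promoters and 0.701 outside them. In 2070 retained regions the Ep300Δ/Δ list had more peaks than the WT list and in 252 fewer. Lost regions often lay beside retained ones, with 28.6% within 1000 bp of one and 55.1% within 10 kb. Of the gained regions, 35.8% lay within 1000 bp of a retained region.

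Taken per gene, promoters mostly kept acetylation. Of 10080 protein-coding genes with a WT peak within 3000 bp of a start, 9307 had an Ep300Δ/Δ peak there too, although 2491 of these lost at least 1 of their promoter peaks. The other 773 genes, 7.67% of those with a WT peak, lost every promoter peak, and 291 genes had promoter peaks in Ep300Δ/Δ cells only. Of the 773 genes, 637 (82.4%) had an H3K4me3 peak at the promoter in Ep300Δ/Δ cells and 664 had one in WT cells, counted separately. Long intergenic noncoding RNA genes lost every promoter peak in 23.6% of 707 cases (20.5 to 26.9), and antisense genes in 17.8% of 787. Chosen after their values were seen, examples with strong WT promoter peaks and none left were Rab4a, a small GTPase gene of endosome recycling (14.7-fold), Slc2a1, which encodes the glucose transporter GLUT1 (13.7-fold), and the myeloid receptor genes Cd300lf (10.6-fold) and Clec4d (10.4-fold). Slc2a1 and Cd300lf kept promoter H3K4me3 peaks in Ep300Δ/Δ cells.

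The 6 strongest lost promoter regions reached 14.7-fold to 18.2-fold in the WT list and ranked at percentiles 83.1 to 88.3 of its peaks. They lay at or near Apobec3 (18.2-fold), 4930481A15Rik (17.5-fold), Sltm (16.5-fold), Sft2d3 (16.4-fold), Primpol, a primase-polymerase gene (16.2-fold), and Rab4a (14.7-fold). Acetylation peaks were present at 5 of these 6 in Tet2-/- cells, the exception being Apobec3, and at 4 in Ep300Δ/Δ Tet2-/- cells, the exceptions being Primpol and Rab4a. Among the strongest lost regions outside promoters were those nearest to the protein-coding starts of Gsr (17.0-fold), Klrb1f (16.6-fold), Lcn4 (16.2-fold), Rxra (16.1-fold) and Lhfpl2 (15.5-fold). The Rxra region, 1766 bp wide in an intron of this retinoid receptor gene, and the Klrb1f region kept H3K4me1 in Ep300Δ/Δ cells and had H3K27ac peaks in both Tet2-/- genotypes.

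The 6 strongest gained regions reached 9.31-fold to 13.6-fold in the Ep300Δ/Δ list, led by the CT030661.1 promoter (13.6-fold), an intergenic region nearest to Depdc1b (11.3-fold) and the Akap11 promoter (11.1-fold). The others lay at Dis3l2, an exoribonuclease gene, Ifi47, an interferon-inducible GTPase gene, and Timm17a, a mitochondrial import gene. For Akap11, Dis3l2, Ifi47 and Timm17a a WT peak ended 97 to 253 bp from the gained region. All 6 had H3K4me3 in Ep300Δ/Δ cells, and 5 had an H3K27ac peak in Tet2-/- cells. By contrast, the 6 strongest retained regions outside promoters, nearest to Irf2 (68.7-fold in the WT list), Kpna2, Ccnl1, Rpl9-ps1, Anp32e and Zfp869 (49.5-fold), all carried WT H3K4me3 as well as H3K27ac in both Tet2-/- genotypes.

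Lost regions were nearest to the start of 5303 protein-coding genes, of which 3840 also kept a retained region. The most were nearest to Etv6, an ETS repressor needed by blood stem cells, with 29 lost, 26 retained and 5 gained regions. Cdk6, a kinase that drives progenitors into cycle, had 25 lost and 7 retained, and Cxcr4, the receptor that holds stem cells in the marrow, 24 lost and 8 retained. Foxp1, a forkhead repressor, followed with 23 lost and 29 retained. Asap1, Pde4d, Rreb1 and St3gal1 each had 18 lost regions, and Notch2, Zfp36l2 and Zmiz1 17 each, a tie that makes 11 genes. A rank by count favours genes with many WT regions, such as Etv6 with 55, Foxp1 with 52 and Zfp36l2 with 37. The share of WT regions lost was 52.7%, 44.2% and 45.9% at these, beside 39.9% over all and 62.7% outside promoters. At the other genes it ran from 54.5% at Rreb1 to 81.8% at Asap1. At every one of the 11 genes the promoter kept a peak, as at 92.3% of all protein-coding genes with a WT promoter peak.

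At each of these genes most lost regions had WT H3K4me1 and lay outside promoters. Over all lost regions, 82.6% had WT H3K4me1, 85.4% of those kept it, and 58.0% lay outside promoters. H3K27ac peaks lay at 31.3% of all lost regions in Tet2-/- and 13.8% in Ep300Δ/Δ Tet2-/- cells. At Pde4d 12 of the 18 lost regions had WT H3K4me1 and 11 had WT H3K4me3, and at Foxp1 7 of the 23 lay at promoters. At Etv6, 28 of the 29 lost regions were intronic, all 29 had WT H3K4me1, 28 kept it, and none had H3K4me3. Their WT fold enrichment ran from 2.36 to 11.6 with a median of 4.60. At Cdk6, 21 of the 25 were intronic, 23 had H3K4me1 in WT and 19 in Ep300Δ/Δ cells, with folds of 3.19 to 10.9. At Cxcr4 all 24 were intergenic, up to 241198 bp from the start, and H3K4me1 went from 23 to 17. In Tet2-/- cells 7 of the Etv6, 9 of the Cdk6 and 3 of the Cxcr4 regions had an H3K27ac peak, and in Ep300Δ/Δ Tet2-/- cells 2, 1 and 1. Notch2, a Notch receptor gene with a role in blood cell fate, had WT H3K4me1 at all 17 lost regions and kept it at 16.

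**Figure D4:**
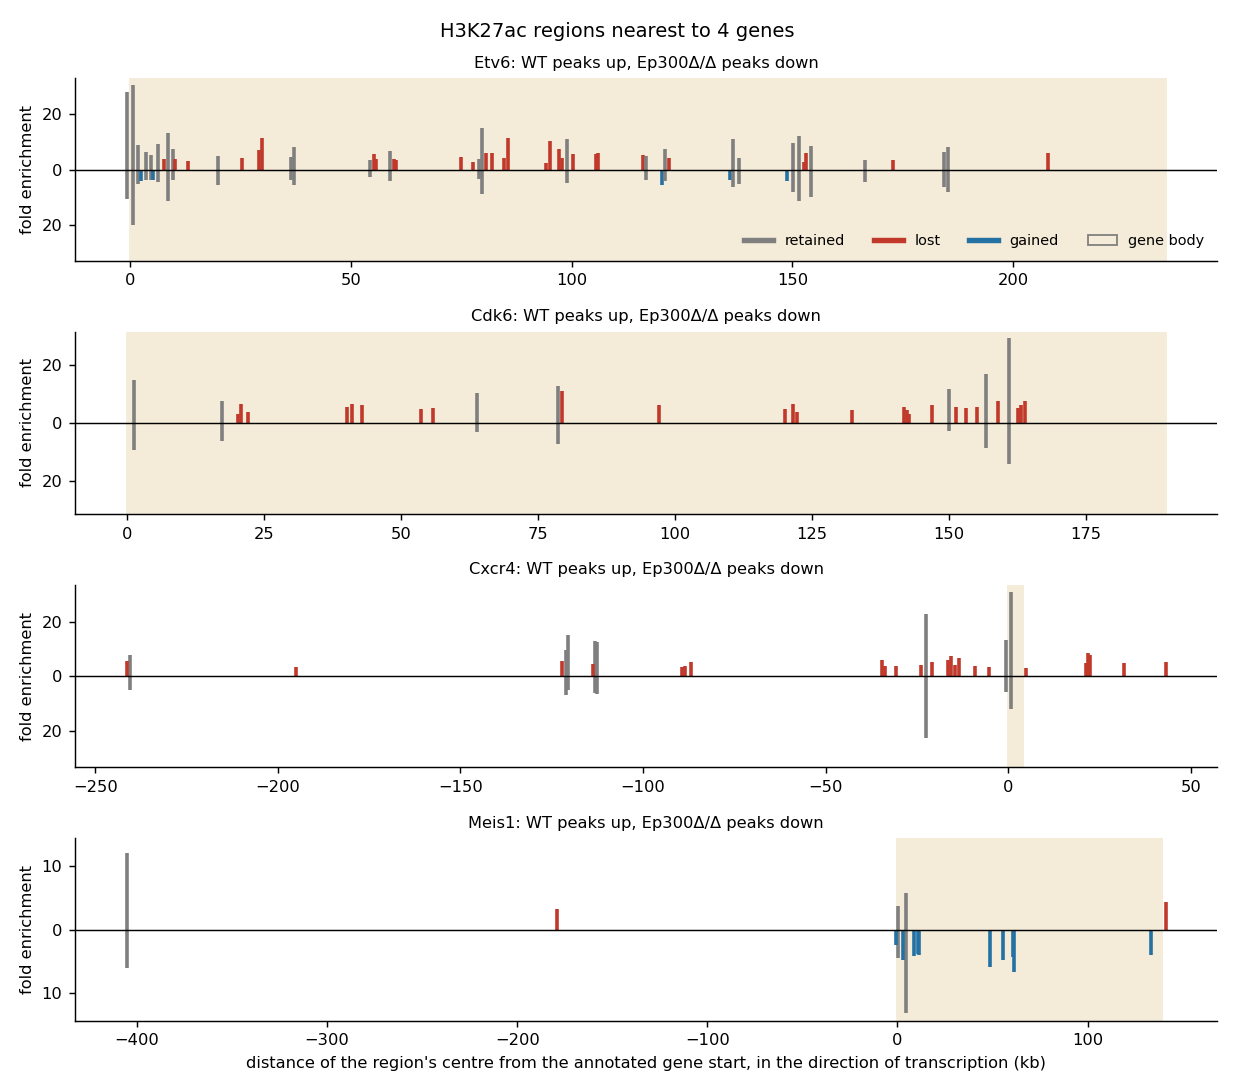
H3K27ac regions nearest to Etv6, Cdk6, Cxcr4 and Meis1 by distance from the gene start in kb, with the WT fold enrichment drawn upward and the Ep300Δ/Δ fold enrichment downward (each height belongs to its own list) and retained, lost and gained regions in grey, red and blue on a shaded gene body. Lost regions scatter through the Etv6 and Cdk6 introns and the flanks of Cxcr4 while the starts keep peaks, and at Meis1 the 10 gained regions sit inside the gene or at its start.

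Gained regions were most numerous at Meis1, a homeobox cofactor of stem cell self-renewal, with 10 gained, 3 retained and 2 lost regions. All 10 lay within the gene or at its start, with Ep300Δ/Δ folds of 2.46 to 6.64. H3K4me1 was present at 8 of them in both genotypes, and H3K27ac at 4 in Tet2-/- and at 7 in Ep300Δ/Δ Tet2-/- cells. Irf8, the interferon regulatory factor that directs monocyte and dendritic cell fate, had 9 gained, 9 retained and 6 lost. Its gained regions had Ep300Δ/Δ folds of 1.90 to 4.76, with H3K4me1 at 7 in WT and 5 in Ep300Δ/Δ cells. None of them had an H3K27ac peak in Tet2-/- cells and 1 had one in Ep300Δ/Δ Tet2-/- cells. Cd74, the invariant chain of class II antigen presentation, had 6 gained regions and no WT region, with folds of 2.68 to 6.12. Mink1 had 6 gained and no lost regions, and Apoh, Bcl11a, Eepd1, Etv6, Klf14, Rftn1 and Sema4b 5 gained regions each.

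At 1539 protein-coding genes with 5 or more WT regions, 32 lost every region and 45 lost none. Among the former, named after their values were seen, were Fcnb, a ficolin gene of myeloid cells (9 of 9), Tcf7, the gene of the lymphoid factor TCF1 (7 of 7), and Ifitm1 (6 of 6). Alcam, a cell adhesion gene, lost all 5 of its regions, all at its promoter, where H3K4me3 stayed. Among the latter were Elf2, an ETS factor gene (12 retained), Tnfaip3, the gene of the NF-kB inhibitor A20 (9), and Sp2 (8).

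Gene lists by lineage and function were described by the regions nearest to their members, beside 39.9% lost over all WT regions. These are counts of regions that share genes and are no test. Stem and progenitor regulators lost 137 of 267 regions (51.3%, 45.1 to 57.4), with 31.2% lost at promoters (21.1 to 42.7), beside 26.6% over all, and 59.5% outside (52.1 to 66.5), beside 62.7% over all. Of the 267 regions, 190 lay outside promoters. Promoter peaks were kept at 21 of the 26 genes, 2 lost all of them and 3 had none in either list. Over all protein-coding genes with a WT promoter peak, 92.3% kept one. The stem and progenitor genes that lost every promoter peak were Gfi1b, a repressor of the erythroid and megakaryocyte lineage, and Mycn, a Myc family gene. Mecom and Bmi1 were among those with none in either list. Besides Etv6 and Cdk6, Runx1, the master factor of definitive hematopoiesis, lost 15 of 35 regions, Erg, an ETS stem cell factor, 12 of 20, and Kit, the stem cell factor receptor, 9 of 13. Flt3, a receptor of lymphoid-primed progenitors, lost 2 of 9 and Lmo2, a bridging factor of the stem cell complex, 4 of 17. Gained regions made up 22.2% (16.1 to 29.2) of the Ep300Δ/Δ regions of this list. Over all Ep300Δ/Δ regions the share was 12.9%, with 9.78% at promoters and 21.8% outside them. It was as high as in this list or higher in others, among them erythroid (22.5%), T and NK (25.5%), Notch pathway (25.6%), granulocyte and monocyte (27.1%), B-lymphoid (27.3%) and megakaryocyte genes (39.1%). Lists with lower shares included ribosomal protein (6.25%), interferon response (10.3%) and histone acetyltransferase and deacetylase genes (10.7%).

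Granulocyte and monocyte genes lost 55 of 98 regions (56.1%, 45.7 to 66.1), including 34 of 60 at promoters (56.7%) against 26.6% over all promoters, and 21 of 38 outside them (55.3%, 38.3 to 71.4) against 62.7% over all. Of the 24 genes with a WT promoter peak 19 kept one, Mpo, Elane and Ctsg among them, and 5 kept none, beside 7.67% of genes over all. Camp, Ngp and S100a9, genes of neutrophil granule and cytosolic antimicrobial proteins, Ly6c2, a monocyte surface antigen gene, and Ccr2, a monocyte chemokine receptor gene, were the 5 that lost every promoter peak. Camp had WT folds of 3.57, 3.99 and 4.99 at its 3 promoter regions and kept H3K4me1 at all 3. Cebpa, the driver of granulocyte commitment, lost 4 regions, 1 at the promoter (4.21-fold) and 3 intergenic, and gained 1 beside the start of the noncoding gene Gm45091 (3.24-fold). Spi1, which encodes PU.1, kept 5 of 8 regions, with the strongest promoter peak at 28.4-fold in WT and 22.0-fold in the Ep300Δ/Δ list. Each fold belongs to its own list and is not compared across lists. Mast cell, basophil and eosinophil genes lost 26 of 32 regions (81.2%, 63.6 to 92.8). At promoters they lost 14 of 15 (93.3%, 68.1 to 99.8, beside 26.6% over all). Outside promoters they lost 12 of 17 (70.6%, 44.0 to 89.7), an interval that includes the 62.7% over all. Prg2, the eosinophil granule protein gene, lost 8 of 9, Mcpt8, a basophil protease gene, 5 of 5, and Hdc, which makes histamine, 5 of 8. These losses moved together with the neutrophil markers Camp and Ngp named above, and the part of the cell composition of the Lin- fraction in them was not tested.

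Erythroid genes lost 28 of 59 regions (47.5%), with 14 of 17 lost outside promoters (56.6 to 96.2%) and 14 of 42 at promoters (19.6 to 49.5%), intervals that include the 62.7% and 26.6% over all. Klf1, the master erythroid factor, kept its only region and Bcl11a, the fetal globin repressor, lost 8 of 12 and gained 5. B-lymphoid genes lost 36 of 60 (interval 46.5% to 72.4%). At promoters they lost 17 of 30 (56.7%, 37.4 to 74.5, beside 26.6% over all). Outside promoters they lost 19 of 30 (63.3%, 43.9 to 80.1, beside 62.7% over all). Foxo1 and Pou2af1 were among the genes that lost every promoter peak, and Bach2 lost 7 of 11 regions. T and NK genes lost 43 of 78 (55.1%, 43.4 to 66.4), with 27.6% lost at promoters and 71.4% (56.7 to 83.4) outside, near the 26.6% and 62.7% over all. Of the lost regions, 15 lay at Ets1 and 7 each at Tcf7 and Id2. Megakaryocyte genes lost 9 of 23 (39.1%, 19.7 to 61.5), close to the share over all regions, and promoter peaks appeared in the Ep300Δ/Δ list alone at Gp5, Pf4 and Selp, genes of platelet surface and granule proteins. Stromal and endothelial genes lost 16 of 28 (57.1%, 37.2 to 75.5). They lost 5 of 10 at promoters (18.7 to 81.3%) and 11 of 18 outside (61.1%, 35.7 to 82.7), intervals that include the 26.6% and 62.7% over all.

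Cytosolic ribosomal protein genes lost 9 of 54 regions (16.7%, 7.91 to 29.3) and kept a promoter peak at all 27 genes, as did the DNA replication genes at all 24 (11 of 42 regions lost, 26.2%, with an interval of 13.9 to 42.0 that includes the share over all regions). At promoters the ribosomal genes lost 3 of 42 regions and the replication genes 8 of 35 (22.9%, 10.4 to 40.1), beside 26.6% over all promoters, and outside promoters they lost 6 of 12 and 3 of 7. Interferon response genes lost 4 of 30 regions (13.3%, 3.76 to 30.7), 2 of 27 at promoters and 2 of 3 outside. They kept the promoter at 14 of the 15 genes that had one, including Isg15, Irf7 and Usp18. The exception was Mx1, whose promoter drives the Cre in the Ep300Δ/Δ mice, with 1 lost region of 4.91-fold. For this and the other lists here, the share kept over all protein-coding genes with a WT promoter peak was 92.3%. The TNF and NF-kB genes lost 51 of 131 (38.9%), with Nfkb1 losing 11 of 17 and Tnfaip3 none of 9, and kept the promoter at 25 of 26 genes, Cxcl2 having no peak. Notch pathway genes lost 39 of 71 (54.9%, 42.7 to 66.8), of which 17 at Notch2. By place they lost 38.7% at promoters (21.9 to 57.8) and 67.5% outside (50.9 to 81.4), intervals that include the 26.6% and 62.7% over all. Nrarp, a Notch target and feedback inhibitor, lost its promoter peak, and Notch3 and Dll4 had promoter peaks in the Ep300Δ/Δ list alone. Histone acetyltransferase and deacetylase genes lost 36 of 86 (41.9%). They lost 9 of 46 at promoters (19.6%, 9.36 to 33.9) and 27 of 40 outside (67.5%, 50.9 to 81.4), intervals that include the 26.6% and 62.7% over all. Crebbp and Hdac7 lost every promoter peak.

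**Figure D5:**
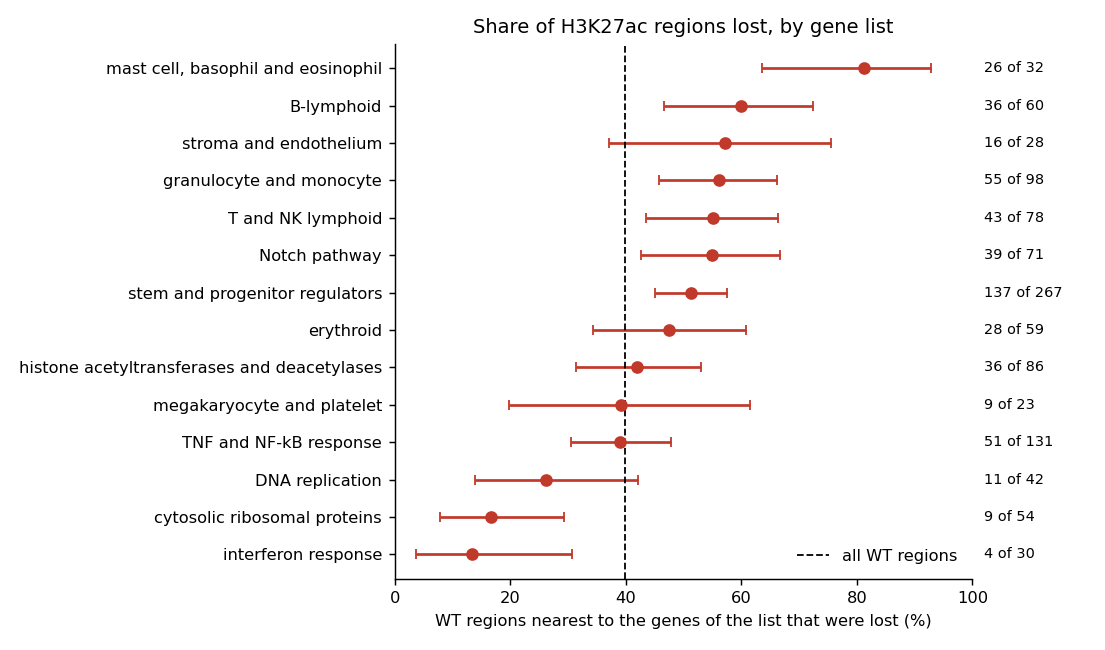
The percentage of WT H3K27ac regions nearest to the genes of each list that were lost, with 95% exact binomial intervals, counts at the right and the 39.9% of all WT regions as a dashed line. Mast cell, basophil and eosinophil genes stand highest at 81.2%, and interferon response genes lowest at 13.3%.

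Ep300 itself kept its promoter peaks, at 62.3-fold in WT and 39.5-fold in the Ep300Δ/Δ list for the strongest (each fold belongs to its own list). It lost 2 intergenic regions of 5.41-fold upstream. The promoter peaks lie at the start of the gene and do not check the deletion. Crebbp had 1 WT region, a 248 bp promoter peak of 4.57-fold at chr16:4213008-4213255 beside the start, which was lost while H3K4me3 was present in both genotypes. At Tet2, the dioxygenase gene deleted in the other background, 3 regions near starts, 1 intronic and 1 exonic region were retained, and 4 were lost with folds of 4.18 to 6.56. The lost Tet2 regions all had H3K4me1 in both genotypes and no peak in the Tet2-/- lists.

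Myb, the progenitor transcription factor gene, had 4 retained and 6 lost regions. The start stayed acetylated, with a merged region of 2717 bp in which peaks covered 2572 bases in the WT and 1803 in the Ep300Δ/Δ list. Of the lost regions, 5 lay within 3000 bp of a start of Myb or of the noncoding genes Gm33619 and Gm40608 (4.20-fold to 7.91-fold), and 1 in an intron of Gm33728 (3.86-fold). H3K4me1 stayed at 4 of the 5 lost regions that had it. In both Tet2-/- genotypes, 3 of the 6 had H3K27ac peaks. Notch1 kept 3 regions, lost 4 and gained 1, all between 3.44-fold and 5.56-fold in the list that had them. Dntt, the terminal transferase gene of early lymphoid cells, kept 2, lost 2 and gained 2, and all 6 had an H3K4me1 peak in Ep300Δ/Δ cells.

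Short motifs within 100 bp of the summits were counted in each class. GC box letters (GGGCGGG, both strands) occurred in 6.39% of all regions, in 10.4% of retained and 5.46% of lost promoter regions, and in 2.35% and 1.87% outside promoters. GATA letters (AGATAAG, both strands), bound by Gata2 and related factors, occurred in 1.65% of all regions, in 2.62% of lost (2.25 to 3.04) and 1.85% of retained regions outside promoters (1.45 to 2.32). Of lost and retained regions outside promoters, 5.02% and 4.53% held RUNX letters (TGTGGTT, both strands, 3.62% of all regions). AP-1 letters (TGANTCA, both strands, 4.54% of all regions) were at 6.16% and 6.07%, and ETS letters of the PU.1 type (GAGGAAGT, both strands, 1.47% of all regions) at 1.93% and 1.92%. NFY letters (CCAATCA, both strands, 1.34% of all regions) were at 1.85% of lost (1.54 to 2.21) and 1.11% of retained regions outside promoters (0.809 to 1.49). Of the 17 motifs counted, NFY was the one whose intervals in lost and retained regions outside promoters did not overlap over all strengths. In the second strength part NFY letters were at 2.12% of lost and 0.820% of retained regions, and in the third the order was reversed, at 1.59% and 1.83%. At promoters the intervals of more motifs did not overlap. MYB letters were at 11.1% of lost and 7.92% of retained promoter regions, and E-box letters at 46.3% and 37.2%. RUNX letters were at 3.7% and 2.6%, GATA at 1.92% and 1.02%, and AP-1 at 4.75% and 3.15%. C/EBP letters (TTGCNNAA) were at 6.14% and 4.55%. Lower in lost regions, besides the GC box, were YY1 (AANATGGCG, 0.437% and 1.42%) and Ets1-type ETS letters (CCGGAAGT, 0.562% and 1.14%). No split by strength was made there. No adjustment for the number of motifs was made. A match is a description of letters in the window and not evidence of binding.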

How the data were processed

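Chromatin of Lin- bone marrow cells was immunoprecipitated for H3K27ac, H3K4me1 and H3K4me3, with 1 library per genotype and mark, and 8 of the 20 libraries were described here: both genotypes for the 3 marks, and H3K27ac of Tet2-/- and Ep300Δ/Δ Tet2-/- cells. Per the study's methods and the submitters' processing notes, the authors used cutadapt 1.15 for trimming and BWA 0.7.13 for alignment to mm10, marked duplicates with Picard, filtered by mapping quality and blacklist, and called narrow peaks with MACS2 2.1.1.20160309 against the H3 library of the same genotype, keeping peaks shared by pseudo-replicates, which are random parts of 1 library. The labels title the methylation libraries H3Kme1 and H3Kme3, read here as H3K4me1 and H3K4me3. The deposited lists give each peak a fold enrichment at the summit, which is a ratio over H3. They also give the deposited −log10 p and −log10 q values. The stated q threshold was 0.05, and the lists still held 264 WT and 1606 Ep300Δ/Δ autosomal peaks with q above it. Use of the spike-in in peak calling is not given in the sources used here, and the lists hold no read counts, so fold enrichment ranked peaks within 1 list only.

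Peaks were merged and classed in Python 3.11.15 with numpy 2.4.6 and scipy 1.17.1, and the overlaps were checked against bedtools 2.31.1 and on simulated lists with known classes. Places and nearest starts came from GENCODE M21, with promoters 3000 bp either side of any transcript start, then exons, introns and intergenic sequence, and overlap with other lists meant 1 bp. Sequences, CpG counts and motifs were read from the NCBI GRCm38.p6 genome with pysam 0.24.0, on which 314 of 314 RefSeq promoters read back identically. Regions, gene lists and motifs were chosen with earlier results of these data known. Named were list members with lost or gained regions, Ep300, Crebbp, Tet2, Myb, Notch1 and Dntt, the 6 strongest regions of each class as described, and the 10 genes with most lost and the 6 with most gained regions, ties included. The list members Klf1, Isg15, Usp18, Mecom, Bmi1, Cxcl2 and Selp had no lost or gained region and were named outside this rule, after their values were seen. Other genes are marked as chosen after their values were seen. Some results that this rule would name are not reported here. Of the listed genes, Ahsp had no match and Gata1, Alas2 and Pola1 were not autosomal. Figures were drawn with matplotlib 3.10.9. Alternatives covered the overlap, peak thresholds, list size, chromosomes, promoter definition, H3K4me1 peaks and the Tet2-/- background.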

Additional observations from a re-analysis of the deposited data

How the results depend on the processing

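The share lost was higher outside promoters than at promoters under all 13 settings, by 24.3 to 41.9 percentage points, a comparison added after seeing the data, while counts and shares depended on the peaks admitted. Peaks of the other list within 500 bp counted as shared gave 31.1% of WT regions lost, 1601 gained, and 63.9% of the lost outside promoters. A −log10 q of at least 5 in both lists gave 45.9% lost, 559 gained and 49.6% of the lost outside promoters. A −log10 q of at least 10 gave 6932 lost (44.7%), 252 gained and 39.7% outside promoters. Lists of equal size gave 5882 lost (26.8%), with 56.0% outside promoters. With loss and gain limited to peaks whose −log10 q reached 5, 6121 were lost (27.5%) and 349 gained, with 56.0% of the lost outside promoters, and when only peaks above the median fold could, 1877 were lost (13.1%) and 184 gained, with 57.0% outside. Among WT regions with a Tet2-/- peak 3575 were lost (19.1%), and 786 gained regions had an Ep300Δ/Δ Tet2-/- peak. Promoters of 1000 bp put 73.2% of the lost regions outside, and protein-coding promoters alone 65.3%. The share of lost regions with WT H3K4me1 was 89.4% with H3K4me1 peaks within 500 bp and 72.5% with H3K4me1 peaks of −log10 q of at least 5.

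Chosen after seeing the data, peaks with q under 0.05 gave 42.1% lost, and WT regions with a Tet2-/- peak 51.7% of the lost outside promoters. The H3K4me1 share, also recomputed after seeing the data, was 84.0% with 500 bp sharing, 81.4% and 75.8% at −log10 q of at least 5 and 10, and 79.2% above the median fold. A 50% overlap and all chromosomes moved none of the 5 quantities by more than its counting interval or, for counts, 1.5 times. The ratio of lost to gained regions, 4.50 as deposited, was 1.57 with lists of equal size, 10.2 above the median fold, 17.5 with only peaks of −log10 q of at least 5 lost or gained, and 18.3 and 27.5 at −log10 q of at least 5 and 10 in both lists. The cause of these shifts was not tested, and with 1 library per genotype and unknown read depth, a weak peak missing from 1 list and a loss of acetylation cannot be told apart. No paired analysis was possible because each genotype had 1 library per mark and no result comes from a test.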
